A study of Homo sapiens with 9 samples.

Results

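The 37 genes of the human mitochondrial genome, 13 mRNAs, 2 rRNAs and 22 tRNAs, were taken from the 60642 gene names of the count table as every name that begins with MT-. In SNU-398 cells that overexpressed either EMX1 transcript, these genes had a smaller mean share of the counts than in the vector control, with no overlap of libraries. They held 7.54% ± 0.615 of the counts in the vector control, 5.40% ± 1.44 with EMX1-FL and 4.95% ± 0.892 with EMX1-X1 (SD, n = 3 libraries each). Both differences had an exact permutation p of 0.1, the smallest that 3 libraries against 3 allow (adjusted p = 0.257). The nearest libraries were EMX1-FL 2 at 6.67% and vector control 1 at 6.96%. No single mitochondrial gene passed an adjusted p of 0.05 in edgeR. The tRNA gene MT-TY in EMX1-FL differed from the control by −2.33 ± 0.403 (SE; log2), and had the smallest adjusted p of the genes tested among the 37 (0.0627).

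SNU-398 is a hepatocellular carcinoma (HCC) cell line, and the paper calls it mesenchymal-like. RNA-seq was made from 3 libraries of cells with the vector control, 3 with stable lentiviral overexpression of full-length EMX1 (EMX1-FL) and 3 with the same for EMX1-X1, an isoform whose alternative last exon, by the paper, disrupts the homeodomain. By the labels, all groups went through puromycin-resistant screening and share a wild type genotype, and the growth medium was the same. Whether each group was 1 clone or a pool of transduced cells, and whether the replicates were separate cultures, is not given in the sources used here, so p-values measure only the spread between these libraries. The labels give total RNA and an NEBNext Ultra kit, while the step that removes rRNA or selects poly(A) RNA is not given.

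Mitochondrial DNA is a small circle with no introns and few spacers. A dedicated polymerase, POLRMT, with the factors TFAM and TFB2M, reads both strands into long precursors, and tRNAs lie between most of the mRNAs and rRNAs. Cleavage on both sides of each tRNA releases the mature RNAs, which are then polyadenylated, methylated or aminoacylated. The mRNAs encode core subunits of respiratory complexes I, III, IV and ATP synthase, while all other subunits and all factors named here come from the nucleus. By the annotation, 28 of the 37 genes lie on the forward strand and 9 on the reverse, which are MT-ND6 and 8 tRNAs.

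Genes abut or overlap, and this bears on what could be counted. By the settings in the header of the count table, read pairs assigned to more than 1 gene were not counted, and strand was not used. MT-ATP8 (chrM:8366-8572, forward strand, GRCh38) shares 46 bases with MT-ATP6, and both are translated from 1 mRNA. The whole gene is shown because read pairs that touch the shared part, in capitals, could be assigned to both genes and so left out:
MT-ATP8: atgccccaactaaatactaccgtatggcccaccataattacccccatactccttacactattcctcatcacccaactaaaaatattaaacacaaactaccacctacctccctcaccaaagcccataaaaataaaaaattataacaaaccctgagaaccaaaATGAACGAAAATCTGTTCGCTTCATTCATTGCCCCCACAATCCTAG
The end of MT-ND4L (chrM:10707-10766, forward strand) is shown for the same reason, with the 7 bases it shares with MT-ND4 in capitals:
MT-ND4L end: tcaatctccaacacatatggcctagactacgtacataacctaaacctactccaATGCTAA

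The 5 tRNA genes with the most counts are shown with their anticodon in capitals, 5′ to 3′ in the sense of the tRNA, since MT-TY had the smallest adjusted p of the members. MT-TN (chrM:5657-5729, reverse strand), MT-TC (chrM:5761-5826, reverse strand) and MT-TY (chrM:5826-5891, reverse strand) lie in 1 cluster of tRNAs between MT-ND2 and MT-CO1. A gap of 31 bases parts MT-TN from MT-TC, MT-TC and MT-TY share 1 base, and 12 bases follow before MT-CO1. MT-TP (chrM:15956-16023, reverse strand) borders the non-coding control region, and MT-TL1 (chrM:3230-3304, forward strand) follows MT-RNR2 directly.
MT-TN: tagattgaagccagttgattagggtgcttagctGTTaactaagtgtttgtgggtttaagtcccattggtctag
MT-TC: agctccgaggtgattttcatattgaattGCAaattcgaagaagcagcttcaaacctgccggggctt
MT-TY: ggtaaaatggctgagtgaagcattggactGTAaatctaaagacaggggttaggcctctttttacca
MT-TP: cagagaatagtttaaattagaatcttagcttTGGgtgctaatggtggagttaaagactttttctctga
MT-TL1: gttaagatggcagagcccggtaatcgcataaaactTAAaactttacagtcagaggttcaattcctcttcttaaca
These tRNAs carry asparagine, cysteine, tyrosine, proline and leucine. The sequences come from GENCODE release 29 on GRCh38, whose coordinates and strands matched the count table for all 37 genes.

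Library totals lay between 21562703 and 25197970 counts. EMX1 itself was at 9.34, 9.99 and 12.9 CPM (counts scaled to library size with TMM factors) in the vector control libraries, at 251, 135 and 145 with EMX1-FL and at 145, 294 and 288 with EMX1-X1. All 6 overexpression libraries lay above the controls. Counts per gene cannot tell the 2 transcripts apart, so the labels EMX1-FL and EMX1-X1 were not checked against each other. In its EMX1 level EMX1-FL 1 stood nearer to EMX1-X1 2 and 3, as EMX1-X1 1 did to EMX1-FL 2 and 3. Chi-square per degree of freedom between 2 libraries over genes, smaller when closer, went the same way. For EMX1-FL 1 it was 39.9 and 40.8 to EMX1-X1 2 and 3, against 131 and 132 to EMX1-FL 2 and 3. For EMX1-X1 1 it was 19.2 and 18.7 to EMX1-FL 2 and 3, against 59.4 and 75.3 to EMX1-X1 2 and 3. Vector control 1 and 2 were nearer still to EMX1-X1 1 (10.9 and 13). The cause was not tested. Of the defining liver genes, AFP and TTR were at 0 counts in all 9 libraries and HNF4A in 7, and ALB was at 0.454 to 2.77 TPM, a level scaled by gene length. The 7 liver markers summed to 0.563 to 1.04 TPM in the vector control, 1.91 to 3.4 with EMX1-FL and 1.14 to 2.61 with EMX1-X1. ALB had a log2 fold change of 1.46 ± 0.452 (SE; adjusted p = 0.467) with EMX1-FL and 1.11 ± 0.454 (adjusted p = 0.576) with EMX1-X1. The 3 mesenchymal markers summed to 749 to 1189.8 TPM over all libraries, the 4 epithelial markers to 4.52 to 9.91 TPM, and the 4 markers of blood and endothelium to at most 2.84 TPM. Whether these markers play a part in the mitochondrial differences was not tested. On the first principal component of nuclear genes (39.6% of the variance), vector control 1 and 2, EMX1-FL 2 and 3 and EMX1-X1 1 (called cluster A) stood apart from vector control 3, EMX1-FL 1 and EMX1-X1 2 and 3 (cluster B). The clusters come from the data and are no condition. Within cluster B, vector control and EMX1-FL have 1 library each, as EMX1-X1 has in cluster A, so values within clusters carry no test.

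The first comparison asked how much of each library was mitochondrial RNA. The 37 genes held 6.96%, 7.47% and 8.18% of the counts in vector control 1 to 3. They held 3.84%, 6.67% and 5.69% in EMX1-FL 1 to 3, and 5.97%, 4.31% and 4.56% in EMX1-X1 1 to 3. All vector control libraries lay above all EMX1-FL and all EMX1-X1 libraries, while the EMX1-FL and EMX1-X1 libraries overlapped. The difference from the vector control was −2.14 percentage points (SE 0.904) for EMX1-FL and −2.59 (SE 0.625) for EMX1-X1. In a two-sided exact permutation test both reached p = 0.1, the smallest that 3 libraries against 3 allow, and the adjusted p over the 18 tests of shares and ratios was 0.257. EMX1-FL and EMX1-X1 differed by 0.453 percentage points (SE 0.978; exact permutation p = 0.8). Both contrasts against the vector control use the same 3 control libraries. The EMX1-FL value leans on replicate 1: without it the difference was −1.36 points. Cluster A gave −1.03 points with EMX1-FL and −1.25 with EMX1-X1. Cluster B gave −4.35 and −3.75 points. Counting error alone gave a 95% Wilson interval of at most ± 0.011 points around each share. In bulk RNA, less mitochondrial RNA per cell, fewer cells rich in it and more RNA from the nucleus cannot be told apart.

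The 13 mRNAs, with 1276994 of the 1615605 mitochondrial counts in vector control 1, make up most of the total and are no separate observation from it. They held 5.50%, 5.97% and 6.71% of the counts in the vector control libraries, 2.94%, 5.41% and 4.60% with EMX1-FL, and 4.67%, 3.38% and 3.62% with EMX1-X1. The lowest control library and EMX1-FL 2 were close, and no library of either overexpression group reached the control range. The 2 rRNAs held 1.42%, 1.46% and 1.42% in the vector control, 0.848%, 1.23% and 1.07% with EMX1-FL, and 1.26%, 0.891% and 0.908% with EMX1-X1. The control libraries were tight here, and again every overexpression library lay below them. The 22 tRNAs held only 0.0428%, 0.0444% and 0.0527% in the vector control. With EMX1-FL they held 0.0486%, 0.0276% and 0.0246%, so replicate 1 lay inside the control range and the other two below it. With EMX1-X1 they held 0.0412%, 0.0405% and 0.0386%, all just below the controls. The exact permutation p was 0.3 for the tRNAs with EMX1-FL and 0.1 for the other 5 of these 6 contrasts with the vector control.

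The balance of the classes within the mitochondrial counts was compared next. The log2 ratio of rRNA to mRNA counts was −2.08 ± 0.146 in the vector control, −2.01 ± 0.19 with EMX1-FL and −1.94 ± 0.0517 with EMX1-X1 (SD, n = 3). It differed from the control by 0.06 (SE 0.138; exact permutation p = 0.7) and 0.14 (SE 0.0892; exact permutation p = 0.2), and all 3 groups overlapped. The 9 genes of the reverse strand held 3.36% ± 0.240, 3.44% ± 0.202 and 3.42% ± 0.161 of the mitochondrial counts. Their differences from the control were 0.078 points (SE 0.181) and 0.0525 points (SE 0.167), smaller than their errors. Since strand was not used in counting, RNA antisense to a gene cannot be told apart from its own.

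Each gene was tested by the quasi-likelihood method of edgeR over the 18574 genes that passed its filter on low counts, and p-values were adjusted over all of them. Of the 37 members, 30 passed the filter, and MT-TF, MT-TI, MT-TQ, MT-TM, MT-TK, MT-TS2 and MT-TL2, all tRNAs, did not, with 0 to 17 counts in any library. In EMX1-FL against vector control, 23 of the 30 were lower, with a median log2 fold change of −0.53 against 0.04 over all genes tested. At an unadjusted p under 0.05, 13 members were lower (1.83% of all genes tested) and 1 higher (3.97%), and 11 had all EMX1-FL libraries below all controls (5.14% of all genes). MT-ATP8 had all EMX1-FL libraries above all controls, and the share of all genes on that side was not counted in any comparison. At the threshold of the paper, which adds a fold change of 1 or more on the log2 scale in either direction, 5 members were lower (0.382% of all genes) and 0 higher (2.04%), and all 5 were tRNAs. MT-TA is among the 13, the 11 and the 5. It passed the filter only through libraries outside EMX1-FL, so its place in these counts is a description. No member passed an adjusted p of 0.05 in edgeR (0.07% of all genes did), although 14 were under an unadjusted 0.05. DESeq2 gave 3 (0.932% of all genes): MT-CO3 (adjusted p = 0.00134), MT-RNR1 (0.0221) and MT-TY (2.29e-06).

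In EMX1-X1 against vector control, 28 of the 30 were lower, and the median was −0.57 against 0.01 over all genes. All 13 mRNAs had a negative fold change. Here 11 members were lower at an unadjusted p under 0.05 (2.16% of all genes) and 0 higher (5.95%). Of the 30, 15 lay below all controls without overlap (6.67% of all genes). MT-TA is among these 15, at 0.444 CPM in EMX1-X1 3 against 0.453 in vector control 3. At the paper's threshold 0 members were lower (0.544% of all genes) and 0 higher (1.95%). At an adjusted p of 0.05 edgeR called 0 members (0.00538% of all genes), with 11 under an unadjusted 0.05, and DESeq2 called 1 (0.361% of all genes), MT-RNR1 (adjusted p = 0.0131). In EMX1-FL against EMX1-X1, 19 of 30 were higher with EMX1-FL and 11 lower, and the median was 0.07. MT-TY as 1 member was lower (0.668% of all genes) and MT-TP as 1 higher (0.748%) at the paper's threshold, 1 was lower (4.66%) and 3 higher (2.98%) at an unadjusted p under 0.05, and 2 lay below without overlap (4.49%). MT-ATP8 lay above without overlap. By edgeR 0 members passed the adjusted p (0% of all genes), with 4 under an unadjusted 0.05, and DESeq2 gave 1 (0.0108% of all genes), MT-TY (adjusted p = 9.83e-05).

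**Figure D1:**
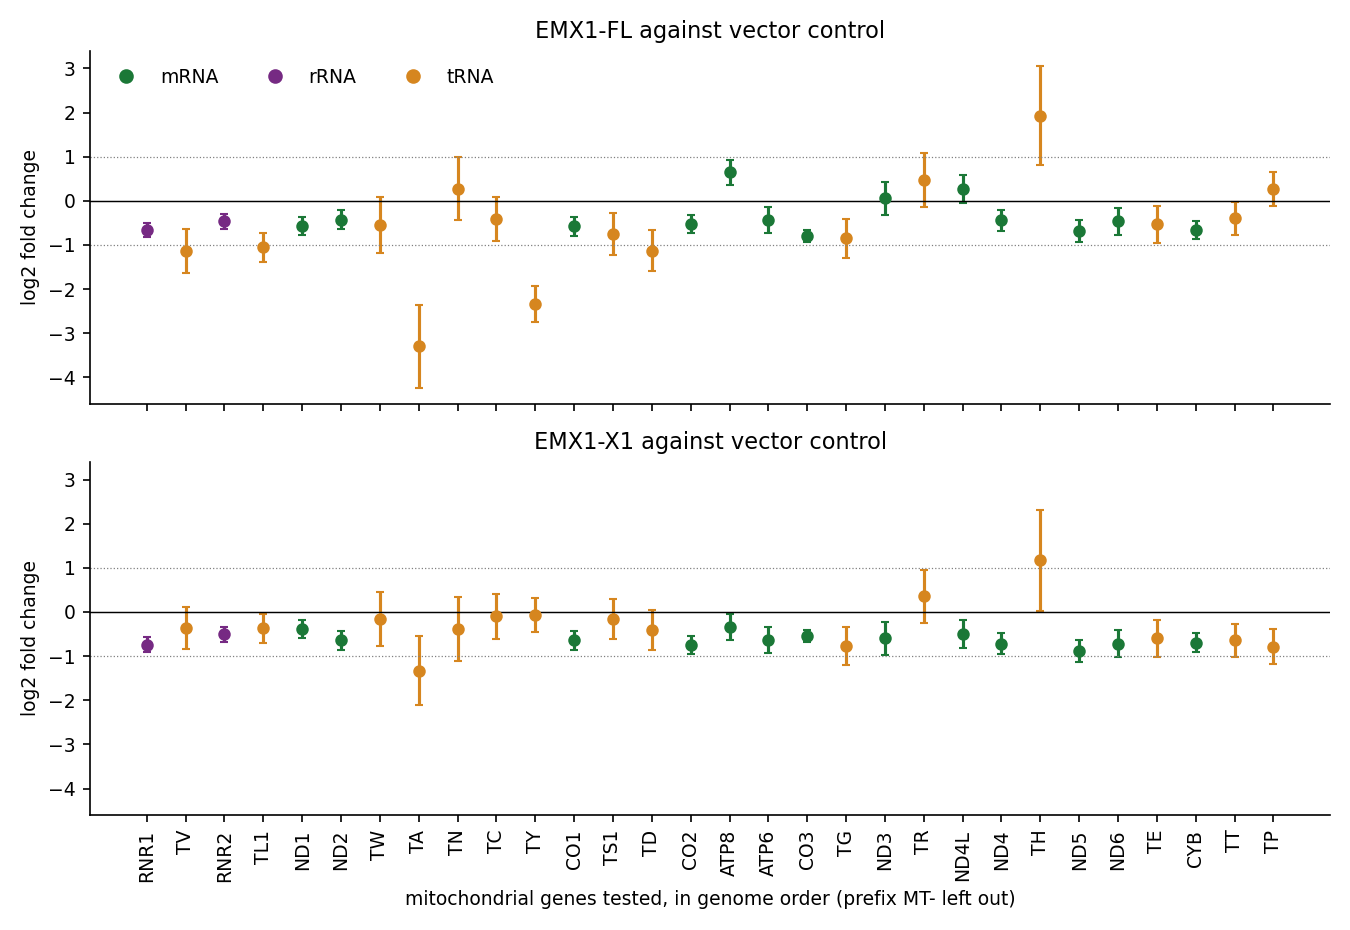
Log2 fold change (points) ± SE (bars) from edgeR for the 30 mitochondrial genes tested, in genome order, for EMX1-FL (top) and EMX1-X1 (bottom) against the same 3 vector control libraries. Both rRNAs and most mRNAs sit between −0.34 and −0.88, the EMX1-FL panel has MT-ATP8, MT-ND3 and MT-ND4L above 0, and MT-TA and MT-TY lie lowest there. MT-TA passed the filter only through libraries outside EMX1-FL, so its low point in that panel is a description.

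The step that removes rRNA or selects poly(A) RNA is not given, so TPM ranks what the libraries kept and not the RNA of the cells. Ranked by mean TPM in the vector control, the first 10 genes of all 60642 were mitochondrial. They were led by MT-ND4 at 37569.0 TPM, MT-RNR2 at 30756.1 and MT-CO1 at 29170.3. Of the first 30 genes 19 were members, and the lowest member, MT-TS2, ranked 19825. All 37 together held 27.1% ± 1.41 of the TPM in the vector control, 21.2% ± 4.42 with EMX1-FL and 19.3% ± 3.34 with EMX1-X1 (SD, n = 3). MT-ND4 was first in all 3 groups and MT-RNR2 second.

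The rRNAs build the mitochondrial ribosome. MT-RNR1, the small-subunit rRNA, was at 815, 930 and 894 CPM in vector control 1 to 3, at 598, 586 and 474 with EMX1-FL and at 594, 447 and 541 with EMX1-X1. The groups did not overlap with the control, and the 2 overexpression groups did with each other. Its log2 fold change was −0.67 ± 0.16 (SE; adjusted p = 0.216) for EMX1-FL and −0.74 ± 0.16 (adjusted p = 0.31) for EMX1-X1. Within cluster A it was −0.73 and −0.55, and within cluster B −0.58 and −0.86. MT-RNR2, the large-subunit rRNA, was at 13259.8, 13827.5 and 13873.7 CPM in the controls, at 7804.0, 11735.9 and 10182.5 with EMX1-FL, and at 11832.4, 8406.3 and 8523.8 with EMX1-X1. All 6 lay below the controls, with log2 fold changes of −0.46 ± 0.175 (adjusted p = 0.707) and −0.51 ± 0.175 (adjusted p = 0.538), the first −0.32 without EMX1-FL 1.

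The 7 complex I mRNAs encode parts of the membrane arm of NADH dehydrogenase. MT-ND5 was at 5407.4, 6088.0 and 6902.3 CPM in the controls, at 2384.4, 4944.8 and 4121.7 with EMX1-FL and at 4250.8, 2783.4 and 2995.2 with EMX1-X1. In EMX1-X1 it had the lowest log2 fold change of the 13 mRNAs, −0.88 ± 0.248 (adjusted p = 0.464), against −0.68 ± 0.247 (adjusted p = 0.653) in EMX1-FL. Its share of the mRNA counts was 9.97% ± 0.121 in the control, 8.77% ± 0.505 with EMX1-FL and 8.60% ± 0.526 with EMX1-X1, with no overlap between the controls and either group. MT-ND1 was at 3534.0, 3730.7 and 4509.1 CPM, then 1813.8, 3335.3 and 2756.8, then 3233.4, 2755.6 and 3035.8. Its share of the mRNA counts was higher in all EMX1-X1 libraries (7.0% to 8.41%) than in the controls (6.19% to 6.47%). MT-ND2 was at 3373.3, 3611.8 and 4193.5 CPM in the controls, at 1794.7, 3405.9 and 3130.3 with EMX1-FL and at 2764.5, 2069.4 and 2309.4 with EMX1-X1. For MT-ND1 the log2 fold changes were −0.57 ± 0.202 in EMX1-FL and −0.38 ± 0.201 in EMX1-X1, and for MT-ND2 they were −0.42 ± 0.219 and −0.65 ± 0.22, none with an adjusted p under 0.05. Without EMX1-FL 1 the EMX1-FL values were −0.36 for MT-ND1, −0.19 for MT-ND2 and −0.43 for MT-ND5.

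MT-ND4 was at 13542.0, 14929.0 and 15861.8 CPM in the controls, at 6727.6, 14193.6 and 11723.6 with EMX1-FL and at 11134.3, 7701.9 and 7986.1 with EMX1-X1. EMX1-FL 2 lay within the control range, and all EMX1-X1 libraries lay below it. The log2 fold changes of MT-ND4 were −0.44 ± 0.237 (adjusted p = 0.956) and −0.72 ± 0.238 (adjusted p = 0.536), and without EMX1-FL 1 the first was −0.19. MT-ND6, the 1 mRNA of the reverse strand, was at 1857.3, 2049.3 and 2608.6 CPM, then 756, 2160.9 and 1793.8, then 1555.6, 1124.7 and 1271.2. MT-ND6 thus overlapped between EMX1-FL and control, at −0.47 ± 0.306 on the log2 scale (adjusted p = 0.997), and did not between EMX1-X1 and control (−0.72 ± 0.307, adjusted p = 0.584). Without EMX1-FL 1 the EMX1-FL value of MT-ND6 was −0.13, and within cluster A it was 0.01.

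Not all complex I mRNAs were lower. MT-ND3 was at 277, 412 and 636 CPM in the controls, at 564, 475 and 338 with EMX1-FL, and at 478, 194 and 205 with EMX1-X1. MT-ND4L was at 919.8, 1246.3 and 1382.4 CPM, then 1459.2, 1619.3 and 1199.5, then 1414.4, 553 and 542. In both genes EMX1-X1 2 and 3 stood far below EMX1-X1 1, and the EMX1-FL libraries lay within or above the control range. The log2 fold changes in EMX1-FL were 0.05 ± 0.37 and 0.27 ± 0.326, and in EMX1-X1 −0.60 ± 0.371 and −0.50 ± 0.327. Both EMX1-X1 values rest on replicates 2 and 3: within cluster A they were 0.50 and 0.40, and within cluster B −1.67 and −1.34. The direction for MT-ND3 in EMX1-FL turned when EMX1-FL 1 was left out (−0.12).

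MT-CYB encodes the only mitochondrial subunit of complex III. It was at 2761.8, 3103.9 and 3618.8 CPM in the controls, at 1410.4, 2486.0 and 2123.1 with EMX1-FL and at 2294.5, 1726.4 and 1845.8 with EMX1-X1. Neither group reached the control range, and the log2 fold changes were −0.66 ± 0.207 (adjusted p = 0.502) and −0.69 ± 0.207 (adjusted p = 0.487).

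MT-CO1, MT-CO2 and MT-CO3 encode the core subunits of cytochrome c oxidase, complex IV, and had lower means in both groups. MT-CO1 was at 11237.1, 12330.6 and 15084.8 CPM in the controls, at 5852.3, 10859.4 and 9232.3 with EMX1-FL and at 9480.0, 7299.1 and 7923.6 with EMX1-X1. MT-CO2 was at 4631.0, 5403.4 and 6595.0 CPM, then 3115.4, 4703.4 and 3687.4, then 4082.5, 2700.0 and 3045.1. For MT-CO1 every overexpression library lay below every control, and for MT-CO2 only EMX1-FL 2 reached the control range. The log2 fold changes of MT-CO1 were −0.58 ± 0.211 (adjusted p = 0.674) and −0.65 ± 0.211 (adjusted p = 0.536), and those of MT-CO2 were −0.53 ± 0.204 (adjusted p = 0.728) and −0.76 ± 0.204 (adjusted p = 0.449). Without EMX1-FL 1 the EMX1-FL values were −0.36 for MT-CO1 and −0.40 for MT-CO2. MT-CO3 was at 3606.9, 3630.6 and 4189.7 CPM in the controls, at 1866.5, 2497.4 and 2212.1 with EMX1-FL and at 2735.8, 2491.9 and 2625.7 with EMX1-X1. Its log2 fold change of −0.80 ± 0.144 in EMX1-FL had the second smallest adjusted p of the members (0.0679), and that of −0.54 ± 0.144 in EMX1-X1 had an adjusted p of 0.444. Leaving out EMX1-FL 1 gave −0.69 with an adjusted p of 0.0317, and within clusters A and B the difference was −0.62 and −1.17.

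The 2 ATP synthase mRNAs parted in EMX1-FL. MT-ATP6 was at 3514.8, 3663.2 and 4054.6 CPM in the controls, at 1315.3, 3533.4 and 3444.3 with EMX1-FL and at 2735.7, 2150.8 and 2318.3 with EMX1-X1. EMX1-FL 2 and 3 were close to the controls, and EMX1-FL 1 was the lowest of all 9 libraries. The log2 fold changes of MT-ATP6 were −0.44 ± 0.29 (adjusted p = 0.997) and −0.64 ± 0.29 (adjusted p = 0.612), and without EMX1-FL 1 the first was −0.10. MT-ATP8 was at 20.1, 29.8 and 26.7 CPM in the controls, at 58.5, 30.1 and 31.0 with EMX1-FL and at 26.5, 18.9 and 15.4 with EMX1-X1. EMX1-FL 1 was the highest library for MT-ATP8, and EMX1-FL 2 and 3 were barely above the top control. The log2 fold change in EMX1-FL was 0.64 ± 0.294 (adjusted p = 0.861), and without EMX1-FL 1 it was 0.26. Against EMX1-X1 it was 0.98 ± 0.296 (adjusted p = 0.611), and without EMX1-FL 1 it was 0.61.

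Since MT-ATP8 and MT-ATP6 lie on 1 mRNA, their counts can be set against each other within a library, as can those of MT-ND4L and MT-ND4. Per 100 counts of MT-ATP6, MT-ATP8 had 0.571, 0.812 and 0.660 in the controls, 4.45, 0.851 and 0.900 with EMX1-FL and 0.967, 0.877 and 0.664 with EMX1-X1. EMX1-FL 1 stood apart from the other 8 libraries. Per 100 counts of MT-ND4, MT-ND4L had 6.79, 8.35 and 8.72 in the controls, 21.7, 11.4 and 10.2 with EMX1-FL and 12.7, 7.18 and 6.78 with EMX1-X1. All EMX1-FL libraries and EMX1-X1 1 lay above the controls here, EMX1-FL 1 the farthest. Of the 207 bases of MT-ATP8, 161 lie outside MT-ATP6. MT-ND3, with 346 bases between 2 tRNAs, followed MT-ND4L: per 100 counts of MT-CO3 it had 7.68, 11.3 and 15.2 in the controls, 30.2, 19.0 and 15.3 with EMX1-FL and 17.5, 7.79 and 7.80 with EMX1-X1. Such ratios also rise when the second gene falls. In EMX1-FL 1 MT-ND3 was within the control range at 564 CPM, while MT-CO3 was below it at 1866.5. MT-ND4L was at 1459.2 CPM there, against 1382.4 in the top control, while MT-ND4 was below the controls at 6727.6. Of 7 short or nuclear RNAs listed as signs of library preparation, 3 could be tested. In EMX1-FL against vector control 2 of them were higher and 1 lower, with a median log2 fold change of 0.243. RN7SL1, the short RNA of the signal recognition particle, was named because it passed the paper's threshold. It stood at 363 counts in its highest EMX1-FL library, against at most 24 in any vector control or EMX1-X1 library. Its log2 fold change in EMX1-FL was 3.45 ± 1.04 (adjusted p = 0.436). Whether the length of the sequenced fragments differed between libraries was not tested.

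Among tRNAs, counts were uneven. MT-TC, MT-TY, MT-TN and MT-TP took 79.2% to 95.6% of the tRNA counts of each library, and the other 18 genes had mean counts between 0.333 and 756. Since read pairs that touched a neighbouring gene were not counted, tRNA counts come only from short fragments, of either strand, that reach no neighbour. Whether they follow the levels of the mature tRNAs, or the length of the fragments in each library, was not tested.

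MT-TY, the tyrosine tRNA, was at 144, 128 and 103 CPM in the controls. With EMX1-FL it was at 28.5, 26.2 and 19.8 CPM, and with EMX1-X1 at 42.4, 159 and 155. All 3 EMX1-FL libraries lay far below the controls, and so did EMX1-X1 1, while EMX1-X1 2 and 3 lay above them. The log2 fold change in EMX1-FL was −2.33 ± 0.403 (adjusted p = 0.0627), against −0.07 ± 0.382 (adjusted p = 0.959) in EMX1-X1. EMX1-FL against EMX1-X1 gave −2.26 ± 0.402 (adjusted p = 0.611), again without overlap. For EMX1-FL the difference was negative in each cluster (−2.58 in A, −1.85 in B), and for EMX1-X1 the clusters went opposite ways (−1.68 in A, 0.61 in B). Over 21 alternative fits the adjusted p of MT-TY in EMX1-FL was under 0.05 in 6 and not in 15, where it reached 0.365. The 6 include the setting of at least 1 count in total (9.78e-20), which looks too small and from which nothing is read. The adjusted p was 2.29e-06 with DESeq2, 0.00211 with the cluster of libraries as a term, 0.0299 without EMX1-FL 1 and 0.0012 without EMX1-X1 1. It was 0.202 with limma on log2(TPM + 1).

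MT-TC, the cysteine tRNA that shares 1 base with MT-TY, did not move with it in every library. It was at 120.5, 135 and 165.5 CPM in the controls, at 225, 48.7 and 42.4 with EMX1-FL, and at 95.1, 153 and 146 with EMX1-X1. EMX1-FL 1 was the highest of all 9 libraries and EMX1-FL 2 and 3 were the lowest, so the log2 fold change was −0.41 ± 0.508 (adjusted p = 0.997). Without EMX1-FL 1 it was −1.62 with an adjusted p of 0.0074. MT-TY per 100 counts of MT-TC was at 120, 95.2 and 62.2 in the controls, 12.7, 53.9 and 46.7 with EMX1-FL and 44.6, 104 and 106 with EMX1-X1. Here too EMX1-X1 1 sat with the EMX1-FL libraries.

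MT-TN, the asparagine tRNA, and MT-TP, the proline tRNA, split the EMX1-X1 libraries. MT-TN was at 37.6, 68.1 and 129 CPM in the controls, at 147, 74.4 and 62.5 with EMX1-FL and at 144, 19.2 and 16.5 with EMX1-X1. MT-TP was at 47.1, 49.2 and 71.0 CPM in the controls, at 59.6, 73.3 and 69.2 with EMX1-FL and at 59.8, 17.9 and 19.6 with EMX1-X1. In both, EMX1-X1 2 and 3 were the 2 lowest of the 9 libraries and EMX1-X1 1 lay within or above the control range. MT-TP was the 1 member higher at the paper's threshold in EMX1-FL against EMX1-X1, at 1.06 ± 0.393 on the log2 scale (adjusted p = 0.611). The same split of EMX1-X1 1 from 2 and 3 was seen in MT-ND3 and MT-ND4L.

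**Figure D2:**
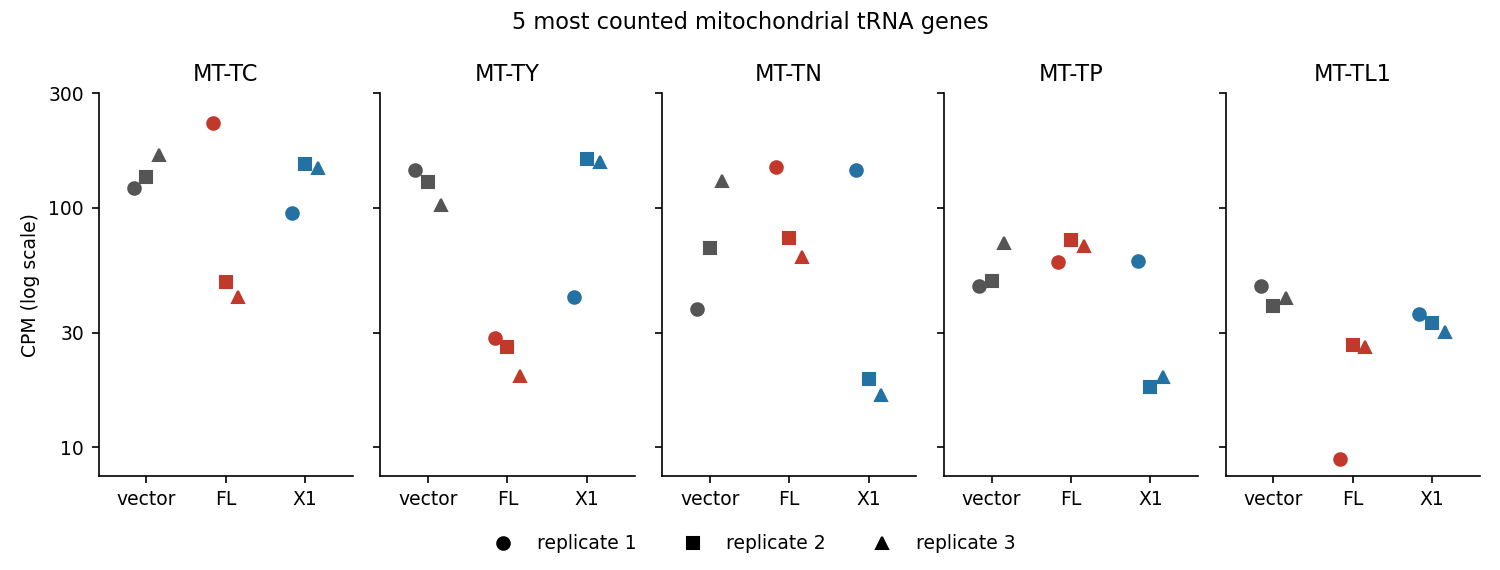
CPM (log axis) of the 5 mitochondrial tRNA genes with the most counts in each library, symbols marking replicates. MT-TY is low in all 3 EMX1-FL libraries and in EMX1-X1 replicate 1 (19.8 to 42.4 CPM), and EMX1-X1 replicates 2 and 3 are the lowest for MT-TN and MT-TP.

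The other 4 tRNAs past the paper's threshold in EMX1-FL, named after their values were seen, were MT-TL1, MT-TV, MT-TD and MT-TA. MT-TL1, a leucine tRNA, was at 47.2, 38.8 and 41.8 CPM in the controls, at 8.92, 26.6 and 26.1 with EMX1-FL and at 35.9, 32.9 and 30.1 with EMX1-X1. No overexpression library reached the control range, and EMX1-FL 1 was the lowest. Its log2 fold change was −1.05 ± 0.327 (adjusted p = 0.472) in EMX1-FL and −0.37 ± 0.323 (adjusted p = 0.744) in EMX1-X1. MT-TV, MT-TD and MT-TA rest on few reads. MT-TV had 6 to 38 counts per library and in EMX1-FL a log2 difference of −1.14 ± 0.492, while MT-TD had 25 to 142 counts and −1.13 ± 0.464. MT-TA had 18, 15 and 11 counts in the controls, 1, 2 and 1 with EMX1-FL and 7, 0 and 11 with EMX1-X1, and its log2 fold change was −3.30 ± 0.951 (adjusted p = 0.364). It passed the filter only through libraries outside EMX1-FL, so its low level there is a description. With at least 10 counts required in every library, 3 members were past the threshold: MT-TD, MT-TL1 and MT-TY. Without EMX1-FL 1, MT-TL1 (−0.69) and MT-TD (−0.94) no longer reached the fold threshold, and MT-TV (−1.12) no longer the p. The other 7 tRNAs tested had log2 fold changes of −0.85 to 1.93 in EMX1-FL, the highest being MT-TH, which had 54 counts in EMX1-FL 1 and 0 to 17 in all others.

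The nuclear genome holds copies of mitochondrial genes, and reads that align to both places were not counted. The 407 listed copies together took 0.157% to 0.224% as many counts as the 37 genes in any library. MTATP6P1 (chr1:633696-634376), MTCO1P12 (chr1:631074-632616) and MTND2P28 (chr1:629640-630683) led them. MTATP6P1 had 1856, 2591 and 2898 counts in the controls, 1133, 2544 and 2056 with EMX1-FL and 2548, 1616 and 1672 with EMX1-X1. Only 6 copies passed the filter, and none passed the paper's threshold in any comparison.

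The nuclear genes that serve the mitochondrial genome and its products were set beside the members by lists. In EMX1-FL against vector control the median log2 fold change was 0.12 for 20 genes of mitochondrial transcription, 0.08 for 38 of RNA processing and stability, −0.07 for 13 regulators of biogenesis and −0.02 for 20 aminoacyl-tRNA synthetases. In EMX1-X1 the medians were −0.10, −0.15, −0.02 and −0.09. For 76 mitochondrial ribosomal protein genes the medians were 0.06 and −0.02, for 87 nuclear genes named as subunits of the respiratory complexes (pseudogenes included) 0.07 and 0.02, and for 20 genes of complex assembly and mitochondrial translation −0.02 and −0.12. Of the 272 genes of these 7 lists that were tested, 0 passed an adjusted p of 0.05 in edgeR or DESeq2 in any comparison. At an unadjusted p under 0.05, edgeR had 11 higher and 0 lower in EMX1-FL, against 3.97% and 1.83% of all genes, and 4 higher and 2 lower in EMX1-X1, against 5.95% and 2.16%. At the paper's threshold 4 were higher and 0 lower in EMX1-FL, against 2.04% and 0.382% of all genes, and 0 and 0 in EMX1-X1, against 1.95% and 0.544%.

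TFAM, which packages mitochondrial DNA and starts its transcription, was at 127 ± 26.7 CPM in the control, 141 ± 35.1 with EMX1-FL and 112 ± 23.4 with EMX1-X1 (SD, n = 3). TFB2M was at 24.7 ± 2.72, 25.3 ± 4.55 and 21.7 ± 3.34 CPM. POLRMT, the RNA polymerase, was at 231 ± 41.1, 256 ± 62.0 and 346 ± 115 CPM, differing by 0.58 ± 0.262 on the log2 scale in EMX1-X1 (adjusted p = 0.61). None of the 3 passed the paper's threshold in either comparison. LRPPRC and SLIRP form a complex that stabilizes mitochondrial mRNAs. LRPPRC was at 761 ± 113, 818 ± 259 and 559 ± 143 CPM, and SLIRP at 28.3 ± 7.72, 51.9 ± 25.4 and 22.8 ± 9.51. SLIRP was higher in EMX1-FL than in EMX1-X1 at the paper's threshold (log2 fold change 1.19 ± 0.372, adjusted p = 0.611).

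PPARGC1A, a coactivator of mitochondrial biogenesis, was low at 0.686 ± 0.359 CPM in the control, 1.54 ± 0.522 with EMX1-FL and 1.35 ± 0.378 with EMX1-X1. It was past the paper's threshold in EMX1-FL (1.16 ± 0.479, adjusted p = 0.803), as were MRPL2, a protein of the large mitochondrial ribosomal subunit (1.34 ± 0.501, adjusted p = 0.698), MRM2, a methyltransferase of the large-subunit rRNA (2.26 ± 0.978, adjusted p = 0.832), and the pseudogene UQCRFS1P1 (1.04 ± 0.376, adjusted p = 0.653). MRM2 rests on 1 to 32 counts per library. Against EMX1-X1, MRPL2 (1.31 ± 0.5) and NDUFC2, a complex I subunit (1.08 ± 0.258), were also higher with EMX1-FL, and the pseudogene COX6A1P2 was lower (−1.05 ± 0.396), each with an adjusted p of 0.611.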

How the data were processed

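RNA-seq read pairs were counted per gene by the authors with featureCounts (2.0.1 in the header of the count table, 2.0.6 in the submitters' processing notes) on GRCh38 with Ensembl release 99, after fastp and STAR. The paper's methods instead name RSEM for the counting. Whether the paper's threshold was applied to the deposited counts is not given. The deposited counts were raw, per gene name, without strand, and pairs that aligned to several places or were assigned to several genes were left out. The deposited log2(TPM + 1) values were made by the authors from these counts and the gene lengths, which the count table gives as another column, and were recomputed to within 5e-06. Totals of 21562703 to 25197970 counts per library set the precision, and intervals cover counting error only.

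Shares of counts were compared by two-sided exact permutation tests, adjusted by Benjamini-Hochberg over 18 tests. Genes were tested with edgeR 4.0.16 (quasi-likelihood test, TMM factors, group as the only term, 9 libraries, 6 residual degrees of freedom) in R 4.3.3 after its filterByExpr filter, and p-values were adjusted over 18574 genes. The paper's threshold is an unadjusted p under 0.05 with a log2 fold change of 1 or more in either direction. DESeq2 1.42.0, limma 3.58.1, other scalings and filters, a term for the clusters and fits without 1 library were alternatives. The edgeR script was tested on simulated data. A chi-square test of the counts of all 36 pairs of libraries gave at least 6.83 per degree of freedom, so no pair differed by sampling noise alone. The members and the gene lists were chosen with earlier results of these data known. Named by rule were the 13 mRNAs, the 2 rRNAs, the 4 tRNAs with the highest mean count, 6 nuclear regulators, listed nuclear genes past the threshold and the 3 nuclear copies with the most counts. MT-TL1, MT-TV, MT-TD, MT-TA and MT-TH were named after their values were seen. Among 7 short or nuclear RNAs listed as signs of library preparation, 3 could be tested, with RN7SL1 past the threshold in EMX1-FL and 0 in EMX1-X1. Python 3.11.15, pandas 2.3.3, scipy 1.17.1 and matplotlib 3.10.9 were used.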

Additional observations from a re-analysis of the deposited data

How the results depend on the processing

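With 1 library left out, the mitochondrial share differed from the vector control by −2.77 to −1.36 percentage points for EMX1-FL. For EMX1-X1 it differed by −3.10 to −2.27. Its sign could not turn in these runs, nor per 100 nuclear counts, since neither group overlapped with the control. By share of TPM, where the sign was not fixed in this way, the differences were −5.93 and −7.79 points. A replicate block leaves a difference of group means as it is (−2.14 and −2.59), so it adds no check. For single genes the block left 5, 0 and 2 members past the paper's threshold. Whether the replicate numbers mark paired libraries is not given. Same-numbered deviations from the group means correlated by −0.522 to 0.29. The clusters cut across the replicate numbers, so these values neither show nor exclude a pairing. For the named members other than MT-TH, single-gene values were compared by sign and by the unadjusted p of the paper's threshold alone, without its fold change. Under all alternatives 1281 kept sign and side of that p, and 33 changed sign. Another 50 passed the p newly and 78 no longer passed it. Only 3 libraries a group limit the tests, and few counts limit MT-TA, MT-TV and MT-TH.

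In EMX1-FL against vector control the count past the threshold was 3 with limma on log2(TPM + 0.1), 3 with at least 10 counts in every library, 14 with no fold threshold, and 3 to 7 with 1 library left out. Members at an adjusted p under 0.05 were 3 with DESeq2 (0.932% of all genes called), 3 with at least 1 count in total (0.383%), 1 with only the 6 libraries (0.0224%), 4 with the cluster term (1.53%) and 0 to 3 with 1 library left out (3 without EMX1-FL 1, 0.563%). In EMX1-X1 against vector control these were 11 with no fold threshold and 0 to 6 with 1 library left out (6 without EMX1-X1 1), and at an adjusted p 1 with DESeq2 (0.361%), 3 with at least 1 count (0.501%) and 1 with the cluster term (0.307%). In EMX1-FL against EMX1-X1 they were 4 with no fold threshold and 1 to 7 with 1 library left out, and at an adjusted p 1, 3 and 0 to 3 with DESeq2 (0.0108%), at least 1 count (0.276%) and 1 library left out (3 without EMX1-FL 1, 6.05%). The setting of at least 1 count tests 36554 genes, many nearly empty, and its adjusted p of 9.78e-20 for MT-TY in EMX1-FL looks too small, so nothing is read from its calls. The cause was not tested.

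Signs turned mainly between EMX1-FL and EMX1-X1. There the share of all 37 was −0.600 within cluster B and −0.182 to 1.24 with 1 library left out. For mRNAs it was −0.558 and −0.119 to 1.12, for rRNAs −0.106 within A, −0.0511 within B and −0.0592 to 0.150, and for tRNAs 0.00904 within B. The log2 rRNA to mRNA ratio was 0.17 within B. The reverse-strand share was −1.69 by TPM, −0.296 within B and −0.0642 to 0.141. Against vector control, the ratio in EMX1-FL was −0.01883 by TPM, −0.13 within A and −0.04587 to 0.13, and the reverse-strand share was −0.430 within B in EMX1-FL, and −0.135 within B and −0.0240 to 0.191 in EMX1-X1. Log2 fold changes with 1 library left out ran, in EMX1-FL, from −0.20 to 0.40 for MT-ND3 and −0.19 to 0.83 for MT-TN (−0.05015 with the replicate block). In EMX1-X1 they ran from −0.22 to 0.07494 for MT-TC, −0.34 to 0.31 for MT-TY, −2.15 to 0.17 for MT-TN and −0.77 to 0.25 for MT-TD. Between EMX1-FL and EMX1-X1 they ran from −0.03995 to 0.17 for MT-RNR1, −0.10 to 0.23 for MT-RNR2, −0.40 to 0.03313 for MT-ND1, −0.13 to 0.30 for MT-CO1, −0.01497 to 0.55 for MT-ATP6, −0.04467 to 0.45 for MT-ND5, −0.04965 to 0.60 for MT-ND6, −0.15 to 0.25 for MT-CYB and −1.51 to 0.0569 for MT-TC. With the cluster term MT-RNR2 was −0.05447, MT-CO1 −0.01724, MT-ATP6 −0.01345 and MT-CYB −0.05261. The cause was not tested.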
